A study of Mus musculus with 48 samples.

Results

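Levels of 10 genes of the integrated stress response were followed in mouse liver: the transcription factor genes Atf4, Atf5 and Ddit3, the feedback gene Trib3, the response genes Chac1 and Sesn2, the amino acid enzyme genes Asns, Psat1 and Phgdh, and Fgf21, which encodes a hormone of stressed and fasted liver. They were chosen by symbol and no threshold on their values was used, but earlier results of these data were known. Their counts beside shares of all genes are therefore a description. Of the 10 symbols, 9 had a row among the 23930 genes of the count table and all 9 passed the filter on low counts, among 12672 genes tested. Phgdh had no such row and was not analysed here.

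The groups were livers given the gapmer antisense oligonucleotides LX-A1656, LX-A2003 or LX-A3928, all directed against Scarb1, and livers given PBS as the vehicle, each at 24 h, 72 h and 168 h. A gapmer carries a DNA-like stretch between modified ends, and RNase H cuts the transcript it pairs with. There were 4 libraries in each of the 12 groups, made from total RNA with a kit that amplifies 1 designed fragment per gene. The labels used here name no dose, strain, sex, age, later dosing or number of animals. Nor do they say that replicates were separate animals, so a p-value measures only how far these samples spread, and that spread may be technical. Library totals ran from 8140065 to 17191129 counts, with a median of 10659453. Scarb1, which encodes the HDL receptor SR-BI and is the target of all 3, was between 1.45% and 17.7% of its level in PBS livers in the 9 oligonucleotide groups. Hepatocyte markers summed to between 33080 and 111100 CPM (counts scaled to library size) in every library. Replicates differed by more than sampling noise, and 4 libraries stood apart from their own replicates: replicate 1 of LX-A1656 and of LX-A2003 at 72 h, replicate 4 of LX-A3928 at 72 h and replicate 3 of LX-A3928 at 168 h.

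The integrated stress response begins when stress-sensing kinases phosphorylate the initiation factor eIF2 on its alpha subunit. General translation then falls while translation of the Atf4 message rises, so the Atf4 transcript shows only part of the response. ATF4 protein pairs with C/EBP family factors on the promoters of genes for amino acid synthesis and import, for feedback and for cell death. In liver it also acts on Fgf21, which PPAR-alpha raises in fasting.

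The core of the element bound by ATF4 with a C/EBP partner is written TGATGNAA, and its letters were searched on both strands of the RefSeq promoter windows of GRCm38.p6, 250 bases before to 50 bases after each start. Of 32851 windows, 1304 held it, or 3.97%. All 10 symbols matched, with 12 windows in all, and the letters stood in windows of 4 genes: Trib3 at 14 and Asns at -23 from the start, Chac1 at -193 and Fgf21 at -139. These windows are shown because they hold the element and because the genes behind them followed different courses, with Asns, Trib3 and Fgf21 above PBS late and Chac1 above it early and below it late. The windows lie on the minus strand at chr2:152344011-152344310 for Trib3, chr6:7693160-7693459 for Asns and chr7:45615441-45615740 for Fgf21, and on the plus strand at chr2:119350992-119351291 for Chac1. They read 5′ to 3′, and the capitals mark the match, which is TGATGAAA for Asns and the reverse strand in the other 3, with TTACATCA in Trib3 and TTGCATCA in Chac1 and Fgf21.
Trib3: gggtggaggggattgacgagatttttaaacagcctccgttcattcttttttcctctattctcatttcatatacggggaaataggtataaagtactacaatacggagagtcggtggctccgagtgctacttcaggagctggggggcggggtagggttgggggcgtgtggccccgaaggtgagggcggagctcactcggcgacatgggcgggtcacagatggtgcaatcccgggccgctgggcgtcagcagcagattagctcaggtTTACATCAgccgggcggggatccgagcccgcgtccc
Asns: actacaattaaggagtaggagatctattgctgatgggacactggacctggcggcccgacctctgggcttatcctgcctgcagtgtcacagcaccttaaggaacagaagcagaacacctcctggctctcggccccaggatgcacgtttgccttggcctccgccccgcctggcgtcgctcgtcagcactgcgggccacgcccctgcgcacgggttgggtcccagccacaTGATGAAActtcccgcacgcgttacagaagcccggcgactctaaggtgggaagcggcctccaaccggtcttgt
Chac1: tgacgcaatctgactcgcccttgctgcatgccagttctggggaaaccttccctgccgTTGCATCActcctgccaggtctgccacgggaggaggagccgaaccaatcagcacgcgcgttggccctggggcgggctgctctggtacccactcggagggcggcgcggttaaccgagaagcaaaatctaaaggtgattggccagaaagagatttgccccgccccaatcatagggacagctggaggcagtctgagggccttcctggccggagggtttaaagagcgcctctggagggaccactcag
Fgf21: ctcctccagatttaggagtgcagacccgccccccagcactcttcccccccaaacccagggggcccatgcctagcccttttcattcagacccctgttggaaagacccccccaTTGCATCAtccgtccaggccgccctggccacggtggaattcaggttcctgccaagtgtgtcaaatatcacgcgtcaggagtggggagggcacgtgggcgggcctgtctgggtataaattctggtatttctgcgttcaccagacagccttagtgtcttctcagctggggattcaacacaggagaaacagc
A match is a description of letters, not of a bound site. The other 6 symbols had none in their windows, which says only that these letters are not there.

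Levels below are CPM corrected with TMM factors, and each set of 4 values follows replicates 1 to 4. Differences are log2 fold changes ± SE, with the oligonucleotide over PBS at the same time, and p-values are those of edgeR (quasi-likelihood F test), adjusted by Benjamini-Hochberg over the 12672 genes. Rose and fell are used of genes whose adjusted p was under 0.05.

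The genes followed different time courses. Asns and Psat1 were not called at 24 h and rose against PBS at 72 h and at 168 h with all 3 oligonucleotides. The growth of that effect between 72 h and 168 h was called with LX-A1656 and not with LX-A2003 or LX-A3928. Chac1 rose at 24 h and 72 h with LX-A2003 and LX-A3928 and fell below PBS at 168 h. Fgf21 rose at 72 h and 168 h with all 3, and Ddit3 was called at 72 h with LX-A1656 and at 168 h with all 3. Sesn2 was not called against PBS at any time.

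**Figure D1:**
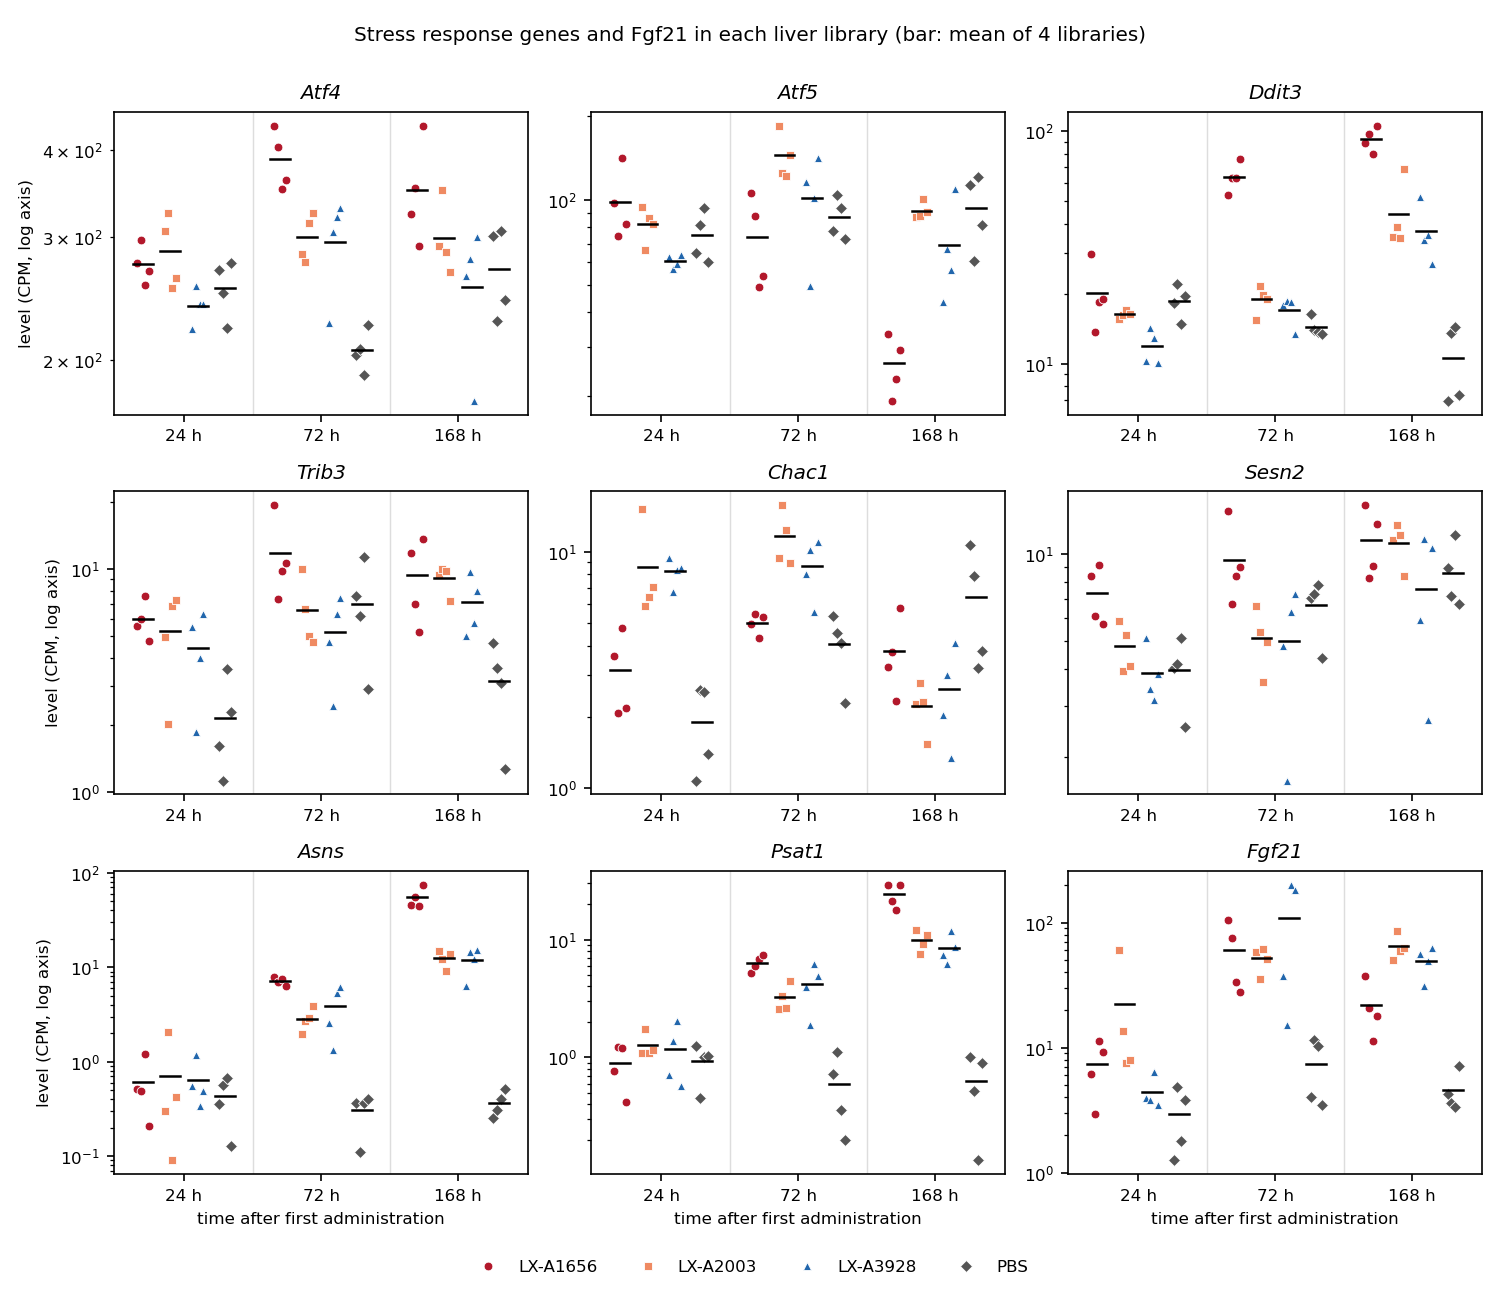
Levels of the 9 genes in each of the 48 libraries, in CPM on a log axis, at 24 h, 72 h and 168 h; each point is 1 library, black bars are means of 4, and PBS stands right of the oligonucleotides at each time. Asns and Psat1 lie above PBS in every oligonucleotide library at 72 h and 168 h, and PBS libraries stay at or below 1.26 CPM, and Chac1 in LX-A2003 livers falls to 2.23 CPM at 168 h, against 11.6 CPM at 72 h.

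At 24 h none of the 9 genes was called with LX-A1656, where 2.86% of all genes tested were called, 0.986% higher and 1.88% lower. At an unadjusted p under 0.05 there were 2, Trib3 and Sesn2, and DESeq2 called 1. With LX-A2003, Chac1 and Fgf21 rose, where 2.09% of all genes were called, 0.939% higher and 1.15% lower. With LX-A3928, Chac1 rose, where 3.26% were called, 1.68% higher and 1.58% lower. The median log2 fold change of the 9 genes was 0.41, 0.42 and 0.30 for LX-A1656, LX-A2003 and LX-A3928, against 0.02, 0.01 and 0.01 over all genes.

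At 72 h 5 of the 9 genes rose with each oligonucleotide and none fell. Among all genes tested 24.7%, 5.48% and 4.47% rose, 23.4%, 6.55% and 5.33% fell, and 48.2%, 12.0% and 9.80% were called either way, for LX-A1656, LX-A2003 and then LX-A3928. The median of the 9 genes was 0.91, 0.73 and 0.52, against 0.05, 0.02 and 0.02 over all genes. Atf4, Asns, Psat1 and Fgf21 were called with all 3, Ddit3 with LX-A1656, and Chac1 with LX-A2003 and LX-A3928.

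At 168 h 6 genes rose and 2 fell with LX-A1656, and 5 rose and 1 fell with each of LX-A2003 and LX-A3928. The background was high by then: 63.9%, 55.1% and 48.0% of all genes tested were called, with 34.1%, 29.8% and 27.3% higher and 29.7%, 25.3% and 20.7% lower. The share of the 9 genes that rose was above that of all genes, and the share that fell was below it. With 9 genes such shares are coarse. The median of the 9 genes was 1.56, 1.52 and 1.17, against 0.10, 0.04 and 0.08 over all genes. Scaling by library totals alone moved the median of all genes at 168 h to 0.56, 0.45 and 0.39, and with LX-A1656 at 72 h to 0.27, so directions here are relative to TMM. On that scale 73.7%, 77.7% and 77.9% of called genes were higher than PBS, against 53.5%, 54.0% and 56.9% with TMM, and the 9 genes gave 7 higher and 1 lower with LX-A1656 and with LX-A2003.

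**Figure D2:**
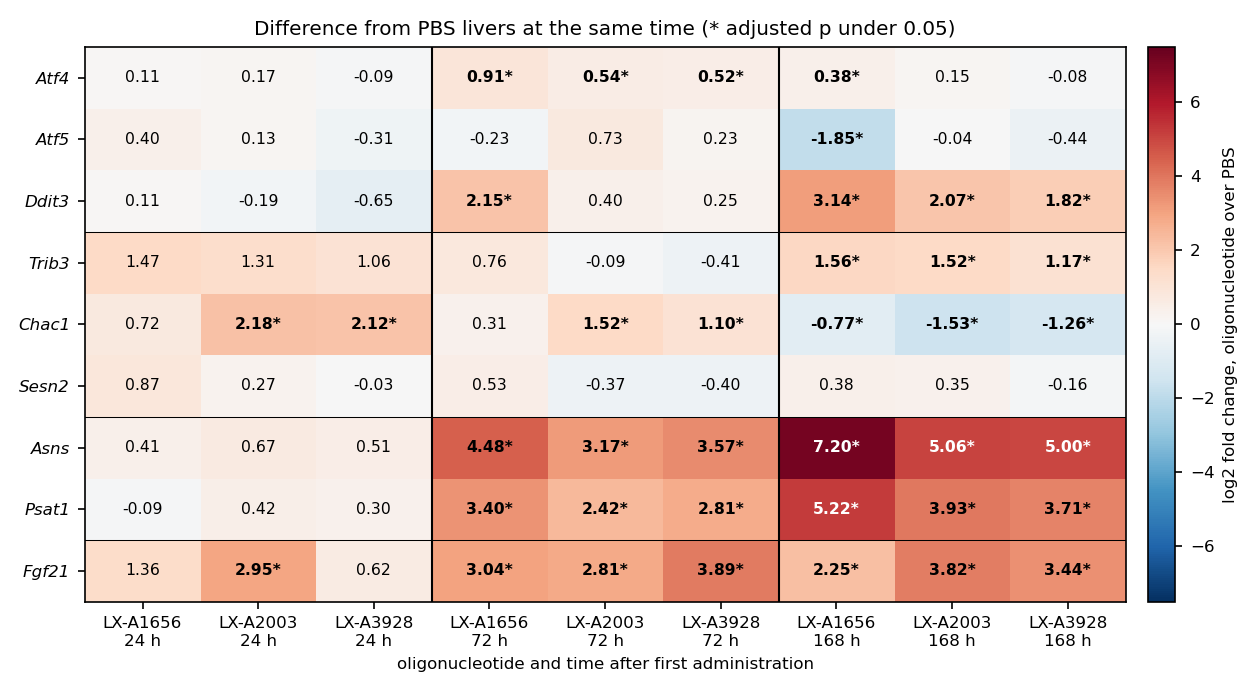
Log2 fold change of each gene, oligonucleotide over PBS, for the 3 oligonucleotides at 24 h, 72 h and 168 h; red is higher and blue lower than PBS, and an asterisk marks an adjusted p under 0.05. The Asns row reaches 7.20 for LX-A1656 at 168 h, and the Chac1 row turns to -1.53 for LX-A2003 at 168 h, against 2.18 at 24 h.

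Atf4, the gene of the transcription factor at the centre of the response, spans 80255184 to 80257541 of chromosome 15 on the plus strand (GRCm38). At 72 h it stood at 434, 404.5, 351 and 363 CPM in LX-A1656 livers, 283.5, 277, 314 and 325 in LX-A2003 livers and 226, 305, 321 and 330 in LX-A3928 livers, against 203, 207, 190.0 and 224 in PBS livers. All 12 oligonucleotide libraries lay above all 4 PBS libraries, by a small margin in replicate 1 of LX-A3928. Against PBS the log2 fold changes were 0.91 ± 0.14 for LX-A1656 (adjusted p = 4.97e-07), 0.54 ± 0.14 for LX-A2003 (adjusted p = 0.00563) and 0.52 ± 0.14 for LX-A3928 (adjusted p = 0.0105). PBS livers were themselves lowest at 72 h, with means of 254, 206 and 269.6 CPM at 24 h, 72 h and 168 h. At 24 h the group means were 274, 286.5 and 239 CPM for LX-A1656, LX-A2003 and LX-A3928, against 254 CPM for PBS, and ranges overlapped. At 168 h Atf4 was called with LX-A1656 alone, at 0.38 ± 0.14 (adjusted p = 0.0161), with 291 to 434 CPM against 227 to 306 CPM in PBS livers. These ranges overlap, and the call was lost without replicate 4 of LX-A1656 (0.26, adjusted p = 0.114), without replicate 2 of PBS (0.31, adjusted p = 0.0735) and without replicate 4 of PBS (0.33, adjusted p = 0.0528), and in a fit of the 8 libraries alone (adjusted p = 0.0776).

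Ddit3 encodes CHOP, a transcription factor of prolonged stress that promotes cell death, and spans 127290774 to 127296288 of chromosome 10 on the plus strand (GRCm38). At 168 h it stood at 89.3, 97.5, 79.9 and 105.9 CPM in LX-A1656 livers, 35.1, 38.7, 34.6 and 68.8 in LX-A2003 livers and 52.4, 34.0, 35.9 and 27.0 in LX-A3928 livers, against 6.91, 13.6, 14.4 and 7.36 in PBS livers. No oligonucleotide library came near the PBS range. The log2 fold changes were 3.14 ± 0.23 for LX-A1656 (adjusted p = 5.64e-16), 2.07 ± 0.23 for LX-A2003 (adjusted p = 1.4e-10) and 1.82 ± 0.23 for LX-A3928 (adjusted p = 4.95e-09). At 72 h the LX-A1656 livers were already apart from the rest, at 53.2, 63.2, 63.1 and 76.0 CPM, against 16.3, 13.9, 13.7 and 13.5 CPM in PBS livers (2.15 ± 0.22, adjusted p = 3.62e-11). The other groups at 72 h averaged 18.9 CPM for LX-A2003 and 17.1 CPM for LX-A3928 and were not called. At 24 h all 4 LX-A3928 libraries, from 10.1 to 14.3 CPM, lay below the PBS range of 14.8 to 22.1 CPM, with a log2 fold change of -0.65 that was not called (adjusted p = 0.0992) but was in a fit of the 8 libraries alone (adjusted p = 0.0089). The annotation holds a second entry under the same symbol on the same strand and an overlap of 68 bases with Mars on the other strand. Neither the strand of counting nor the position of the amplified fragment is given. Reads of overlapping genes therefore cannot be told apart if the fragment lies in a shared stretch.

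Atf5, a related transcription factor that ATF4 and CHOP induce, spans 44812256 to 44816658 of chromosome 7 on the minus strand (GRCm38). In LX-A1656 livers at 168 h it stood at 33.2, 19.2, 22.9 and 29.2 CPM, against 113.5, 60.6, 120.9 and 81.5 CPM in PBS livers. All 4 libraries were below every PBS library, with a log2 fold change of -1.85 ± 0.27 (adjusted p = 7.7e-08). With LX-A2003 at 168 h the level was 91.5 ± 6.44 CPM (SD, n = 4), against 94.1 ± 28.1 CPM in PBS livers, and with LX-A3928 it was 69.1 ± 28.9 CPM. At 72 h the LX-A2003 libraries, at 185, 125, 122.5 and 146 CPM, lay above all 4 PBS libraries at 77.4, 104.7, 94.2 and 72.6 CPM. That difference of 0.73 ± 0.26 was not called (adjusted p = 0.0557), and it was called by DESeq2 (adjusted p = 0.0451) and in a fit of the 8 libraries alone (adjusted p = 0.0012). Atf5 shares 571 bases with Nup62 and 272 with Il4i1 on the opposite strand, so the caution on strand and fragment position applies to it too.

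Asns, the gene for asparagine synthetase, which makes asparagine from aspartate and glutamine, spans 7675169 to 7693254 of chromosome 6 on the minus strand (GRCm38). It was barely detected in PBS livers, where the 12 libraries held between 1 and 6 reads each, so its folds rest on a low base and their errors are wide. At 72 h it stood at 7.82, 6.91, 7.43 and 6.31 CPM in LX-A1656 livers, 1.95, 2.70, 2.89 and 3.87 in LX-A2003 livers and 2.56, 1.33, 5.36 and 6.11 in LX-A3928 livers, against 0.365, 0.1105, 0.361 and 0.399 in PBS livers. Every oligonucleotide library was above every PBS library. The log2 fold changes were 4.48 ± 0.52 for LX-A1656 (adjusted p = 7.04e-10), 3.17 ± 0.56 for LX-A2003 (adjusted p = 4.02e-05) and 3.57 ± 0.54 for LX-A3928 (adjusted p = 4.73e-06). At 168 h the levels were 45.5, 56.0, 44.4 and 74.7 CPM in LX-A1656 livers, 15.0, 12.3, 9.18 and 13.7 in LX-A2003 livers and 6.37, 14.5, 12.2 and 15.2 in LX-A3928 livers, against 0.251, 0.31, 0.404 and 0.508 in PBS livers. In counts this was 3242, 656 and 580 reads over the 4 libraries of LX-A1656, LX-A2003 and LX-A3928, against 12 reads over the 4 PBS libraries. As log2 fold changes these were 7.20 ± 0.49 (adjusted p = 3.38e-17), 5.06 ± 0.50 (adjusted p = 7.34e-12) and 5.00 ± 0.50 (adjusted p = 1.78e-11) in the same order. Among all genes tested these folds ranked 83, 170 and 102 from the highest. At 24 h the group means lay between 0.601 and 0.712 CPM with the oligonucleotides, against 0.43 CPM with PBS, and no difference was called.

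Psat1 encodes phosphoserine aminotransferase, the serine synthesis enzyme that acts on the product of Phgdh, and spans 15904678 to 15947337 of chromosome 19 on the minus strand (GRCm38). At 168 h it stood at 29.1, 21.2, 17.8 and 28.8 CPM in LX-A1656 livers, 12.0, 7.52, 9.09 and 10.8 in LX-A2003 livers and 7.35, 6.26, 11.8 and 8.65 in LX-A3928 livers, against 1.00, 0.517, 0.135 and 0.889 in PBS livers. The groups did not overlap, and the log2 fold changes were 5.22 ± 0.39 (adjusted p = 8.66e-16), 3.93 ± 0.39 (adjusted p = 1.4e-11) and 3.71 ± 0.40 (adjusted p = 1.36e-10) for LX-A1656, LX-A2003 and LX-A3928. At 72 h the means were 6.33, 3.24 and 4.22 CPM, against 0.599 CPM in PBS livers, and every oligonucleotide library was again above every PBS library. Those log2 fold changes were 3.40 ± 0.40 (adjusted p = 1.24e-09), 2.42 ± 0.42 (adjusted p = 2.9e-05) and 2.81 ± 0.41 (adjusted p = 2.15e-06). At 24 h the 4 groups overlapped, with means from 0.901 to 1.27 CPM in the oligonucleotide groups, against 0.932 CPM in PBS livers. A processed pseudogene, Gm3329, lies within the gene on the opposite strand.

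Chac1, whose enzyme breaks down glutathione, spans 119351229 to 119354381 of chromosome 2 on the plus strand (GRCm38). At 24 h it stood at 3.60, 2.08, 4.78 and 2.18 CPM in LX-A1656 livers, 15.1, 5.90, 6.42 and 7.09 in LX-A2003 livers and 9.41, 6.75, 8.34 and 8.53 in LX-A3928 livers, against 1.08, 2.60, 2.56 and 1.40 in PBS livers. The LX-A2003 and LX-A3928 libraries were all above PBS, while the LX-A1656 libraries overlapped it. The log2 fold changes were 0.72 ± 0.40 for LX-A1656 (adjusted p = 0.496), 2.18 ± 0.37 for LX-A2003 (adjusted p = 0.000225) and 2.12 ± 0.37 for LX-A3928 (adjusted p = 0.000187). At 72 h the levels were 9.42, 15.7, 12.3 and 8.93 CPM in LX-A2003 livers and 8.05, 10.2, 5.57 and 11.0 in LX-A3928 livers, against 5.36, 4.53, 4.09 and 2.29 in PBS livers. Both groups again lay above PBS, with log2 fold changes of 1.52 ± 0.34 (adjusted p = 0.00124) and 1.10 ± 0.34 (adjusted p = 0.0301). The LX-A3928 call was lost without replicate 4 of that group (0.97, adjusted p = 0.101), without its replicate 2 (1.02, adjusted p = 0.079) or without 1 of replicates 2, 3 or 4 of PBS (adjusted p from 0.054 to 0.127), and also without the 4 libraries that stood apart (0.97, adjusted p = 0.0764).

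At 168 h Chac1 was lower than PBS with all 3 oligonucleotides. The levels were 3.26, 3.76, 2.34 and 5.79 CPM in LX-A1656 livers, 2.28, 2.79, 2.32 and 1.54 in LX-A2003 livers and 2.05, 3.02, 1.34 and 4.10 in LX-A3928 livers, against 10.7, 7.87, 3.23 and 3.81 in PBS livers. Only the LX-A2003 libraries lay wholly below PBS. The log2 fold changes were -1.53 ± 0.36 for LX-A2003 (adjusted p = 0.000341) and -1.26 ± 0.35 for LX-A3928 (adjusted p = 0.00295), and the LX-A1656 value of -0.77 ± 0.34 (adjusted p = 0.0446) passed the threshold narrowly. The LX-A1656 call was lost in all 6 other fits and scalings tried (-0.79 to -0.31) and without any of 3 LX-A1656 and 2 PBS libraries, down to -0.42 without replicate 1 of PBS (adjusted p = 0.315). The LX-A3928 call was lost in a fit of its 8 libraries alone (adjusted p = 0.0567). PBS livers moved as well, with means of 1.91, 4.07 and 6.40 CPM at 24 h, 72 h and 168 h.

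Trib3 encodes a pseudokinase that ATF4 and CHOP induce and that holds them back, and spans 152337422 to 152344032 of chromosome 2 on the minus strand (GRCm38). At 168 h it stood at 11.8, 6.99, 5.25 and 13.7 CPM in LX-A1656 livers, 9.46, 10.0, 9.81 and 7.19 in LX-A2003 livers and 5.00, 9.73, 5.72 and 7.98 in LX-A3928 livers, against 4.65, 3.62, 3.10 and 1.27 in PBS livers. All oligonucleotide libraries were above all PBS libraries. These were log2 fold changes of 1.56 ± 0.41 (adjusted p = 0.00101), 1.52 ± 0.41 (adjusted p = 0.00177) and 1.17 ± 0.42 (adjusted p = 0.0182) for LX-A1656, LX-A2003 and LX-A3928, and the last was lost without replicate 2 of LX-A3928 (0.98, adjusted p = 0.0663) or replicate 4 of PBS (0.91, adjusted p = 0.085). At 24 h the means were 5.97, 5.29 and 4.43 CPM, against 2.15 CPM in PBS livers, with log2 fold changes of 1.47, 1.31 and 1.06 that were not called. The LX-A1656 libraries at 24 h, from 4.78 to 7.56 CPM, all lay above the PBS range of 1.13 to 3.57 CPM. That difference had an adjusted p of 0.0566 and was called by DESeq2 (adjusted p = 0.0213), in a fit of the 8 libraries alone (adjusted p = 0.00341), with the replicate number as a block (adjusted p = 0.0489) and without replicate 3 of PBS (1.83, adjusted p = 0.0296). At 72 h all groups overlapped PBS livers, which averaged 6.98 ± 3.48 CPM (SD, n = 4). The LX-A1656 difference of 0.76 at 72 h was not called (adjusted p = 0.0953), and it was with library totals alone (0.97, adjusted p = 0.0285) and without replicate 3 of PBS (1.10, adjusted p = 0.0291).

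Sesn2, the gene for sestrin 2, which dampens mTORC1 when leucine is scarce, spans 132492032 to 132510501 of chromosome 4 on the minus strand (GRCm38). Its group means ran from 3.89 CPM with LX-A3928 at 24 h to 11.2 CPM with LX-A1656 at 168 h. Against PBS the log2 fold changes lay between -0.40, for LX-A3928 at 72 h, and 0.87, for LX-A1656 at 24 h, and none was called. The LX-A1656 libraries at 24 h, at 8.37, 6.11, 9.16 and 5.72 CPM, all lay above the PBS libraries at 4.04, 4.18, 5.12 and 2.55 CPM (adjusted p = 0.182), and the difference was called in a fit of the 8 libraries alone (0.86, adjusted p = 0.0318). Scaled by library totals alone, Sesn2 was called with LX-A1656 at 72 h (0.74) and at 168 h (0.85) and with LX-A2003 at 168 h (0.76). PBS livers averaged 3.97, 6.64 and 8.59 CPM at 24 h, 72 h and 168 h. The gene shares 6089 bases with Gm12981, which lies on the same strand although its type is annotated as antisense. The position of the amplified fragment is not given, so reads of the pair cannot be told apart if it lies there.

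Fgf21, the gene for a liver hormone that acts on fat tissue and brain, spans 45613886 to 45615490 of chromosome 7 on the minus strand (GRCm38). Its replicates varied most of the 9 genes, with a biological coefficient of variation of 0.557 against 0.142 to 0.367 in the others. At 72 h it stood at 104.7, 75.6, 33.3 and 27.9 CPM in LX-A1656 livers, 58.6, 35.1, 61.9 and 51.2 in LX-A2003 livers and 37.6, 15.0, 200.7 and 183 in LX-A3928 livers, against 4.02, 11.6, 10.3 and 3.49 in PBS livers. Every oligonucleotide library exceeded every PBS library, although replicate 2 of LX-A3928 did so narrowly. The log2 fold changes were 3.04 ± 0.63 for LX-A1656 (adjusted p = 9.04e-05), 2.81 ± 0.62 for LX-A2003 (adjusted p = 0.0012) and 3.89 ± 0.64 for LX-A3928 (adjusted p = 2.79e-05). The LX-A3928 call was lost in a fit of its 8 libraries alone (3.87, adjusted p = 0.0672). At 168 h the levels were 37.4, 20.8, 11.2 and 17.9 CPM in LX-A1656 livers, 50.04, 86.3, 59.7 and 62.8 in LX-A2003 livers and 56.5, 31.0, 49.1 and 62.3 in LX-A3928 livers, against 4.27, 3.62, 3.37 and 7.11 in PBS livers. The groups were again separate from PBS, at 2.25 ± 0.64 (adjusted p = 0.00249), 3.82 ± 0.66 (adjusted p = 5.23e-06) and 3.44 ± 0.66 (adjusted p = 3.25e-05). The mean for LX-A1656 was the lowest of the 3 at 168 h, where Asns and Ddit3 were highest.

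At 24 h the Fgf21 call for LX-A2003 did not hold in every run, and replicate 1 of LX-A2003 stood far above its group. The levels were 60.1, 13.5, 7.50 and 7.93 CPM, against 1.26, 4.85, 1.78 and 3.82 CPM in PBS livers, all higher, with a log2 fold change of 2.95 ± 0.68 (adjusted p = 0.00972). Without replicate 1 of LX-A2003 the difference was 1.75 (adjusted p = 0.194), without replicate 1 of PBS it was 2.67 (adjusted p = 0.0676), and in a fit of the 8 libraries alone the call was lost (adjusted p = 0.158). Replicate 1 of LX-A2003 also had the highest Chac1 of its group, at 15.1 CPM. With LX-A1656 and LX-A3928 at 24 h the means were 7.38 and 4.40 CPM, against 2.93 CPM in PBS livers, and were not called.

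The order of the 12 groups differed between genes. For Asns and Psat1 the LX-A1656 livers at 168 h came first, at 55.2 ± 14.0 and 24.3 ± 5.63 CPM (SD, n = 4), and did not overlap the next group, LX-A2003 at 168 h. Ddit3 had the same first group, at 93.2 ± 11.1 CPM, followed without overlap by LX-A1656 at 72 h. For Chac1 the order began with LX-A2003 at 72 h, at 11.6 ± 3.12 CPM, and for Fgf21 with LX-A3928 at 72 h, at 109.1 ± 96.2 CPM, and neighbours overlapped all the way down. Atf5 in LX-A1656 livers at 168 h came last, at 26.1 ± 6.27 CPM, and did not overlap the group before it. In Atf4, Trib3 and Sesn2 all neighbours overlapped.

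Next, the oligonucleotides were compared with each other at matched times. No source used here says whether their doses matched, and their structures are not described. Calls between LX-A1656 and the other 2 came mainly at 72 h and 168 h, when 32.1% to 41.7% of all genes tested were called in the same comparisons. No gene followed here was called between LX-A3928 and LX-A2003.

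At 24 h no gene was called between LX-A2003 and LX-A1656, where 0.284% of all genes tested were called. At an unadjusted p under 0.05 there were 2, and DESeq2 called 1, Chac1, which stood 1.46 ± 0.35 higher in LX-A2003 livers (adjusted p = 0.0506 with edgeR and 0.0154 with DESeq2). Between LX-A3928 and LX-A1656, with 2.90% of all genes called, Chac1 was higher in LX-A3928 livers by 1.40 ± 0.35 (adjusted p = 0.0179) and Ddit3 was lower by a log2 value of -0.77 ± 0.22 (adjusted p = 0.0442). The Ddit3 call was lost without any of 3 LX-A1656 and 3 LX-A3928 libraries, down to -0.52 without replicate 1 of LX-A1656 (adjusted p = 0.319). The Chac1 call was lost without replicate 2 (1.25, adjusted p = 0.0862) or 4 (1.25, adjusted p = 0.0564) of LX-A1656 or replicate 1 of LX-A3928 (1.33, adjusted p = 0.0513).

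At 72 h 7 of the 9 genes were called between LX-A2003 and LX-A1656, where 35.9% of all genes were. Chac1 (1.21 ± 0.33, adjusted p = 0.00297) and Atf5 (0.96 ± 0.26, adjusted p = 0.00272) were higher in LX-A2003 livers. Ddit3 was lower there by a log2 value of -1.76 ± 0.22 (adjusted p = 8.83e-09), with 15.4 to 21.5 CPM against 53.2 to 76.0 CPM. Asns (-1.31 ± 0.36), Psat1 (-0.97 ± 0.31), Sesn2 (-0.90 ± 0.31) and Atf4 (-0.37 ± 0.14) were also lower in LX-A2003 livers, with adjusted p from 0.00337 to 0.0315. Atf4 was not called without the libraries that stood apart (-0.29, adjusted p = 0.115) or without replicate 1 or 2 of either group (adjusted p from 0.0629 to 0.107), nor was Sesn2 without replicate 1 of LX-A1656 (-0.66, adjusted p = 0.128) or replicate 3 of LX-A2003 (-0.75, adjusted p = 0.0845). Between LX-A3928 and LX-A1656 5 genes were called, against 40.6% of all genes, and all 5 were lower in LX-A3928 livers, as 20.1% of all genes were. Ddit3 led again at -1.90 ± 0.22 (adjusted p = 1.13e-09), and Trib3 (-1.17 ± 0.39), Sesn2 (-0.93 ± 0.31), Asns (-0.90 ± 0.35) and Atf4 (-0.40 ± 0.14) followed with adjusted p from 0.0128 to 0.0362. Each of these 4 lost its call without replicate 1 of LX-A1656 (adjusted p from 0.0735 to 0.106), and Trib3, Sesn2 and Asns also lost theirs without replicate 2 of LX-A3928 (adjusted p from 0.0635 to 0.163), the library in which 6 of the 9 genes were at the lowest level of its group. Atf4 and Asns lost theirs without replicate 1 of LX-A3928 (adjusted p = 0.12 and 0.133), Asns without replicate 2 or 3 of LX-A1656 (adjusted p = 0.05004 and 0.0651) and with DESeq2 (adjusted p = 0.0506), and Trib3 without the libraries that stood apart (-1.04, adjusted p = 0.0522). Fgf21 was not called in either comparison.

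At 168 h 5 genes were called between LX-A2003 and LX-A1656, where 32.1% of all genes were. Asns (-2.13 ± 0.32, adjusted p = 1.21e-06), Psat1 (-1.29 ± 0.28, adjusted p = 0.000406) and Ddit3 (-1.07 ± 0.21, adjusted p = 8.76e-05) were lower in LX-A2003 livers. Atf5 was higher by 1.81 ± 0.27 (adjusted p = 7.32e-07), with 87.0 to 100.9 CPM in LX-A2003 livers against 19.2 to 33.2 CPM in LX-A1656 livers. Fgf21 was higher by 1.57 ± 0.57 (adjusted p = 0.031), at 50.04 to 86.3 CPM against 11.2 to 37.4 CPM, and that call was lost without replicate 2, 3 or 4 of LX-A1656 or replicate 2 of LX-A2003 (1.35 to 1.55, adjusted p from 0.0686 to 0.103). Between LX-A3928 and LX-A1656 the called genes were Asns (-2.19 ± 0.32), Psat1 (-1.52 ± 0.29), Ddit3 (-1.32 ± 0.21), Atf4 (-0.46 ± 0.14) and, with the opposite sign, Atf5 (1.41 ± 0.26), 5 of 9 where 41.7% of all genes were called. Their adjusted p ran from 4.34e-07 to 0.00632, and Atf4 was not called without replicate 3 of LX-A3928 (-0.32, adjusted p = 0.0508) or replicate 4 of LX-A1656 (-0.35, adjusted p = 0.0517), or in a fit of the 8 libraries alone (adjusted p = 0.165).

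Between LX-A3928 and LX-A2003 none of the 9 genes was called at 24 h, 72 h or 168 h, where 0.150%, 0.718% and 8.10% of all genes tested were. The last of these shares, 1026 genes with 65.8% of them higher in LX-A3928 livers, was 311 genes with 41.8% higher without the libraries that stood apart and 29 genes with 13.8% higher in a fit of the 8 libraries alone. DESeq2 called none at any of the 3 times, and 2, 0 and 0 genes had an unadjusted p under 0.05. The intervals leave room for differences of some size: at 168 h the 95% interval of the log2 difference was -0.71 to 0.59 for Asns, -0.67 to 0.18 for Ddit3, -0.81 to 0.36 for Psat1 and -1.50 to 0.74 for Fgf21. For Fgf21 at 24 h the difference was -2.33, with an interval from -3.62 to -1.05 (adjusted p = 0.254). Replicate 1 of LX-A2003, at 60.1 CPM, weighs on that value. At 24 h the log2 differences of the 9 genes ran from -2.33 to -0.06. Atf5, Ddit3 and Fgf21 did not overlap between these groups then. Atf5 was called in an edgeR fit of the 8 libraries alone (-0.44, adjusted p = 0.0463).

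**Figure D3:**
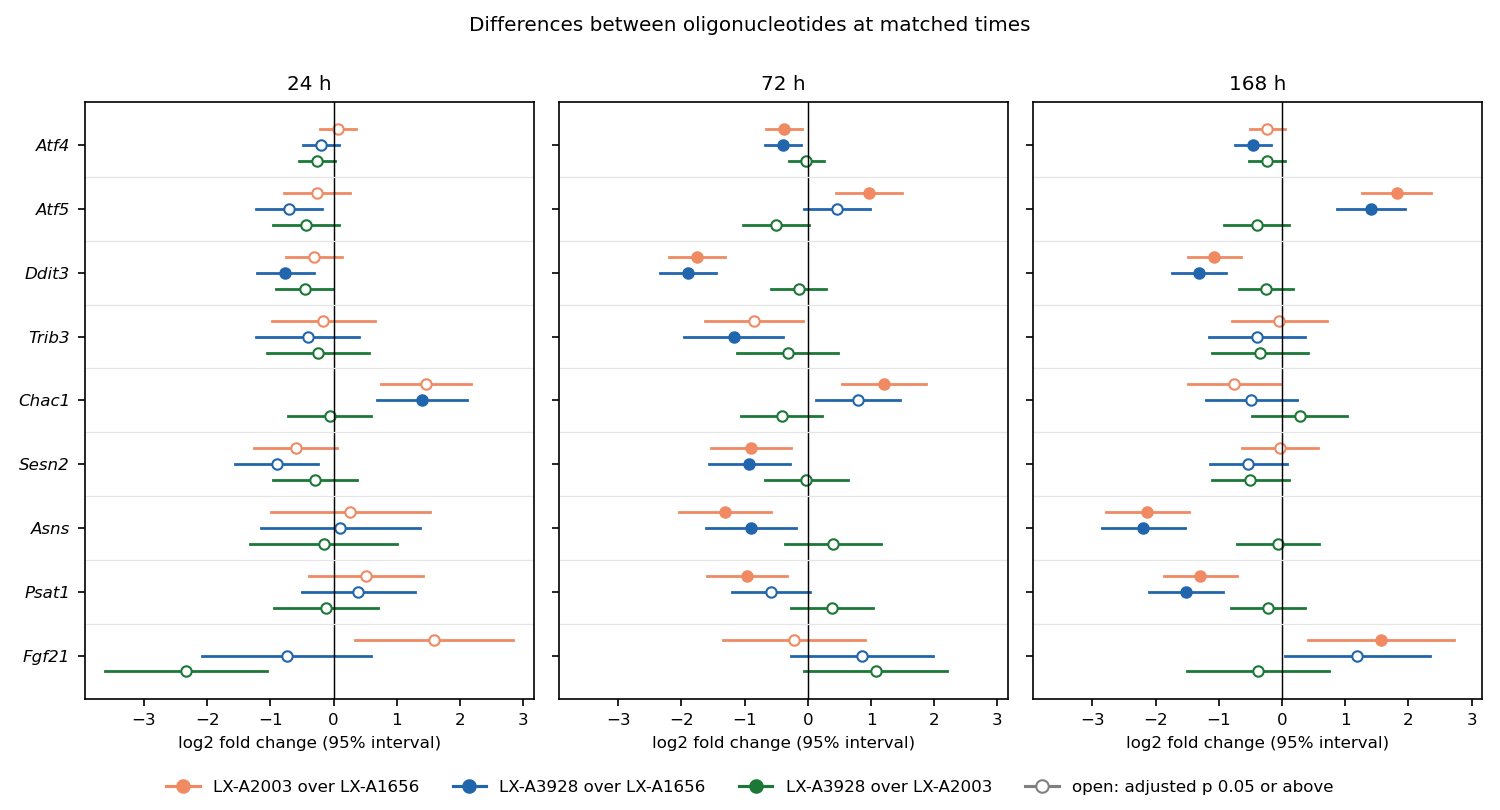
Log2 difference between oligonucleotides for each gene at 24 h, 72 h and 168 h, with 95% intervals; filled points had an adjusted p under 0.05. Ddit3 lies left of 0 for LX-A2003 and LX-A3928 over LX-A1656 at 72 h (-1.76 and -1.90), Atf5 lies right of it at 168 h (1.81 and 1.41), and all points of LX-A3928 over LX-A2003 are open.

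Whether an effect against PBS changed between times was tested as a difference of differences. From 24 h to 72 h the LX-A1656 effect grew for Asns by 4.07 ± 0.94 (adjusted p = 0.000759), Psat1 by 3.49 ± 0.63 (adjusted p = 2.65e-05), Ddit3 by 2.04 ± 0.31 (adjusted p = 1.28e-06) and Atf4 by 0.80 ± 0.20 (adjusted p = 0.00145), or 4 of 9 genes where 30.2% of all genes were called and 14.2% had a larger effect. For LX-A3928 only Psat1 was called, with a growth of 2.51 ± 0.61 (adjusted p = 0.0213), where 1.26% of all genes were. That call was lost without any of 6 libraries, 3 of them PBS (2.20 to 2.35, adjusted p from 0.0508 to 0.0855). At an unadjusted p under 0.05 there were 7 genes, and DESeq2 called 3, with Asns at 3.09 (adjusted p = 0.0126) and Fgf21 at 3.30 (adjusted p = 0.0122) among them. For LX-A2003 none was called, where 2.71% of all genes were, and 3 had an unadjusted p under 0.05 while DESeq2 called 1. The Asns effect of LX-A2003 differed between these times by 2.496 ± 0.92 (adjusted p = 0.166), or by 3.87 (adjusted p = 0.0119) without replicate 2 of its 24 h group, the library with 2.03 CPM of Asns. No Chac1 change between 24 h and 72 h was called.

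From 72 h to 168 h the genes divided. The Ddit3 effect grew with all 3 oligonucleotides, by 0.98 ± 0.31 for LX-A1656 (adjusted p = 0.0126), 1.67 ± 0.31 for LX-A2003 (adjusted p = 4.81e-05) and 1.57 ± 0.31 for LX-A3928 (adjusted p = 0.000191). The Chac1 effect dropped by 3.05 ± 0.50 with LX-A2003 (adjusted p = 4.55e-06) and by 2.36 ± 0.49 with LX-A3928 (adjusted p = 0.000336). With LX-A1656 the Chac1 change of -1.08 ± 0.49 was not called (adjusted p = 0.0895). Atf4 effects dropped by 0.53 ± 0.20 with LX-A1656 (adjusted p = 0.0352) and by 0.60 ± 0.20 with LX-A3928 (adjusted p = 0.0215). Both calls were lost with library totals alone, at -0.28 (adjusted p = 0.306) and -0.18 (adjusted p = 0.536), with no filter on low counts and in fits of the compared libraries alone. They were also lost without any of 8 and of 3 libraries in turn, and the LX-A3928 one also without the libraries that stood apart (-0.40, adjusted p = 0.106). The LX-A1656 effect on Asns grew by 2.72 ± 0.94 (adjusted p = 0.0238) and on Psat1 by 1.83 ± 0.63 (adjusted p = 0.0224), while that on Atf5 dropped by 1.62 ± 0.37 (adjusted p = 0.000656). With LX-A2003 and LX-A3928 the growth was not called for Asns (1.89 and 1.43, adjusted p = 0.124 and 0.29) or for Psat1 (1.51 and 0.90, adjusted p = 0.0678 and 0.341). The LX-A1656 calls for Asns and Psat1 were lost without any of 3 PBS libraries each, with Psat1 at 1.33 without replicate 2 of PBS at 72 h (adjusted p = 0.17). Trib3 effects grew by 1.60 ± 0.57 with LX-A2003 (adjusted p = 0.028) and 1.57 ± 0.57 with LX-A3928 (adjusted p = 0.0411), and these were lost without any of 4 and of 8 libraries in turn, as low as 1.24 without replicate 3 of PBS at 72 h (adjusted p = 0.135). PBS levels moved in these differences too. Trib3 means went from 6.98 to 3.16 CPM in PBS livers, 6.59 to 9.12 in LX-A2003 livers and 5.24 to 7.11 in LX-A3928 livers. Atf4 means went from 206 to 269.6 CPM in PBS livers, 388 to 351 in LX-A1656 livers and 295 to 254 in LX-A3928 livers. The genes called were 5, 3 and 4 of 9 for LX-A1656, LX-A2003 and LX-A3928, where 30.1%, 29.7% and 23.0% of all genes were.

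In PBS livers none of the 9 genes was called between 72 h and 24 h or between 168 h and 72 h, where 0.0789% and 0.0316% of all genes were called. At an unadjusted p under 0.05 there were 4 and 2, and DESeq2 called 1 and 0. The widest PBS differences were in Trib3, at 1.69 ± 0.44 between 72 h and 24 h (adjusted p = 0.141, and 0.0287 with DESeq2), and Fgf21, at 1.35 ± 0.70. The PBS means of Trib3, Chac1 and Fgf21 thus varied between times, although edgeR called none of these differences.

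Across the 12 group means of log2 CPM, Asns and Psat1 moved most alike, with a Pearson correlation of 0.994. Ddit3 correlated with Asns at 0.903 and with Psat1 at 0.896, and Atf4 with Ddit3 at 0.706. Chac1 had correlations of -0.222 with Asns and -0.393 with Ddit3, and Atf5 of -0.557 with Asns and -0.599 with Ddit3. These 12 points share their libraries and scaling and are given as a description. Within groups, over the deviations of the 48 libraries from their group means, other pairs came first: Atf5 with Sesn2 at 0.719, Sesn2 with Trib3 at 0.636 and Atf5 with Trib3 at 0.527, against 0.351 for Asns with Psat1.

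The genes followed here were then set aside, Psat1 with its 0.994 to Asns among them. Among the other genes tested, those with group means most like Fgf21 were Sdr39u1 (0.944), Aldoc (0.942), the gene for an aldolase isoenzyme of brain, and 1110028F11Rik (0.941). Aldoc averaged 48.0, 50.3 and 46.0 CPM for LX-A1656, LX-A2003 and then LX-A3928 at 72 h, against 9.50 CPM with PBS. Most like Asns were Bco1 (0.984), a carotene-cleaving enzyme gene, Lyz2 (0.979), the lysozyme gene of macrophages, and Slc1a5 (0.979), a glutamine transporter gene. Slc1a5 averaged 30.9, 10.4 and 8.82 CPM at 168 h, against 1.17 CPM with PBS, and Lyz2 462, 231 and 181 CPM, against 51.6 CPM. Ddit3 was most like Pfkfb4 (0.971), LOC108167930 (0.970) and Ccrl2 (0.969), and Atf4 most like Prpf31 (0.894), Gpank1 (0.892) and Zfp553 (0.872). Each correlation is over 12 group means, and nothing on shared control follows from it.

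Other genes of the pathway were followed as lists, whose counts stand beside the shares of all genes tested. At 72 h those were 24.7% higher and 23.4% lower with LX-A1656, 5.48% higher with LX-A2003 and 4.47% higher with LX-A3928. Of 23 other ATF4 target genes tested, 13 rose and 4 fell with LX-A1656 at 72 h, 6 rose with LX-A2003 and 4 rose with LX-A3928, with medians of 0.81, 0.38 and 0.29. Mthfd2, a mitochondrial folate enzyme gene, had the smallest p with each, at 2.78 ± 0.23, 2.30 ± 0.23 and 1.80 ± 0.23. The amino acid transporter gene Slc7a5 rose by 1.67 ± 0.31 with LX-A2003 and Slc7a1 by 1.82 ± 0.35 with LX-A3928. At 168 h, when 34.1%, 29.8% and 27.3% of all genes were higher and 29.7%, 25.3% and 20.7% lower, 18, 14 and 13 rose and 2, 2 and 1 fell for LX-A1656, LX-A2003 and then LX-A3928, and the list medians of 1.26, 0.98 and 0.82 stand beside 0.10, 0.04 and 0.08 for all genes. Gpt2, an alanine aminotransferase gene, rose by 2.48 ± 0.17, 1.95 ± 0.17 and 1.80 ± 0.17. Ddit4, whose product restrains mTORC1, rose by 4.59 ± 0.25 with LX-A1656 and 2.27 ± 0.23 with LX-A2003, whereas at 24 h it had fallen by 0.82 ± 0.23 with LX-A2003 and by 1.38 ± 0.23 with LX-A3928.

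Of the 9 bZIP partners and feedback factors, 5, 2 and 1 rose at 72 h for LX-A1656, LX-A2003 and then LX-A3928, where 24.7%, 5.48% and 4.47% of all genes were higher, and 6, 7 and 5 rose while 1 fell at 168 h, where 34.1%, 29.8% and 27.3% were higher. Atf3, a stress-induced repressor, rose at 168 h by 4.90 ± 0.26, 6.42 ± 0.26 and 5.41 ± 0.26. Jun and Fos, the AP-1 subunit genes, rose beside it, with Fos at 5.23 ± 0.38, 4.72 ± 0.38 and 3.55 ± 0.38. Of 12 genes for eIF2 kinases, phosphatase subunits and eIF2 or eIF2B subunits, 3, 3 and 3 rose and 3, 2 and 3 fell at 168 h, shares near or below the 34.1%, 29.8% and 27.3% higher and 29.7%, 25.3% and 20.7% lower of all genes, so the counts show nothing about this list. Ppp1r15a, which encodes the inducible subunit that removes the phosphate from eIF2, rose by 2.24 ± 0.22 with LX-A1656 and 1.38 ± 0.22 with LX-A2003. Eif2ak3, the gene for the ER stress kinase PERK, rose by 1.10 ± 0.17 with LX-A2003 and 1.09 ± 0.17 with LX-A3928. Of 13 tRNA synthetase and tRNA export genes, 2, 3 and 3 rose and 4 fell in each at 168 h, against the same shares of all genes, with fewer higher and somewhat more lower. Gars rose by 1.43 ± 0.15, 1.43 ± 0.15 and 1.31 ± 0.15, and Tars, its threonine counterpart, fell by 1.43 ± 0.18 with LX-A2003 and 1.01 ± 0.18 with LX-A3928.

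ER chaperone genes are raised by the unfolded protein response. None of the 18 on the list rose in any of the 9 comparisons with PBS. At 168 h 11, 10 and 6 fell for LX-A1656, LX-A2003 and then LX-A3928, where 29.7%, 25.3% and 20.7% of all genes did, with medians of -0.65, -0.49 and -0.32. Pdia4, a protein disulfide isomerase gene, fell by 1.07 ± 0.13, 0.51 ± 0.13 and 0.62 ± 0.13. At 24 h 6 fell with LX-A2003, where 1.15% of all genes did, among them Dnajb9 at -1.14 ± 0.20 (adjusted p = 0.000298), Creld2 at -1.31 ± 0.31 (adjusted p = 0.0127) and Manf at -0.81 ± 0.20 (adjusted p = 0.0201). In that group Chac1 and Fgf21 rose.

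On the receptor side of FGF21, 4, 4 and 3 of 10 genes rose and 4, 5 and 5 fell at 168 h. Of all genes 34.1%, 29.8% and 27.3% were higher and 29.7%, 25.3% and 20.7% lower, so the count of higher genes lies near the background. Klb, the gene for the co-receptor beta-klotho, fell by 1.89 ± 0.26 with LX-A3928 at 168 h and by 2.05 ± 0.26 with LX-A1656 at 72 h. Spry4, an inhibitor of FGF signalling, fell by 1.74 ± 0.23, 2.07 ± 0.23 and 2.53 ± 0.24 at 168 h, while Fgfr1 rose by 2.41 ± 0.24 with LX-A1656. Of 14 PPAR-alpha target genes, 6, 6 and 4 rose and 6, 5 and 5 fell at 168 h, not far from those shares. Cpt1a, the gate of fatty acid entry into mitochondria, rose by 1.34 ± 0.14 with LX-A2003 and 1.30 ± 0.14 with LX-A3928. Of 9 NRF2 targets 5, 6 and 7 rose, led by Srxn1 at 3.03 ± 0.18, 3.08 ± 0.18 and 2.95 ± 0.18, and of 10 p53 targets 8 rose with each and 1 fell with LX-A3928, where 34.1%, 29.8% and 27.3% of all genes were higher.

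**Figure D4:**
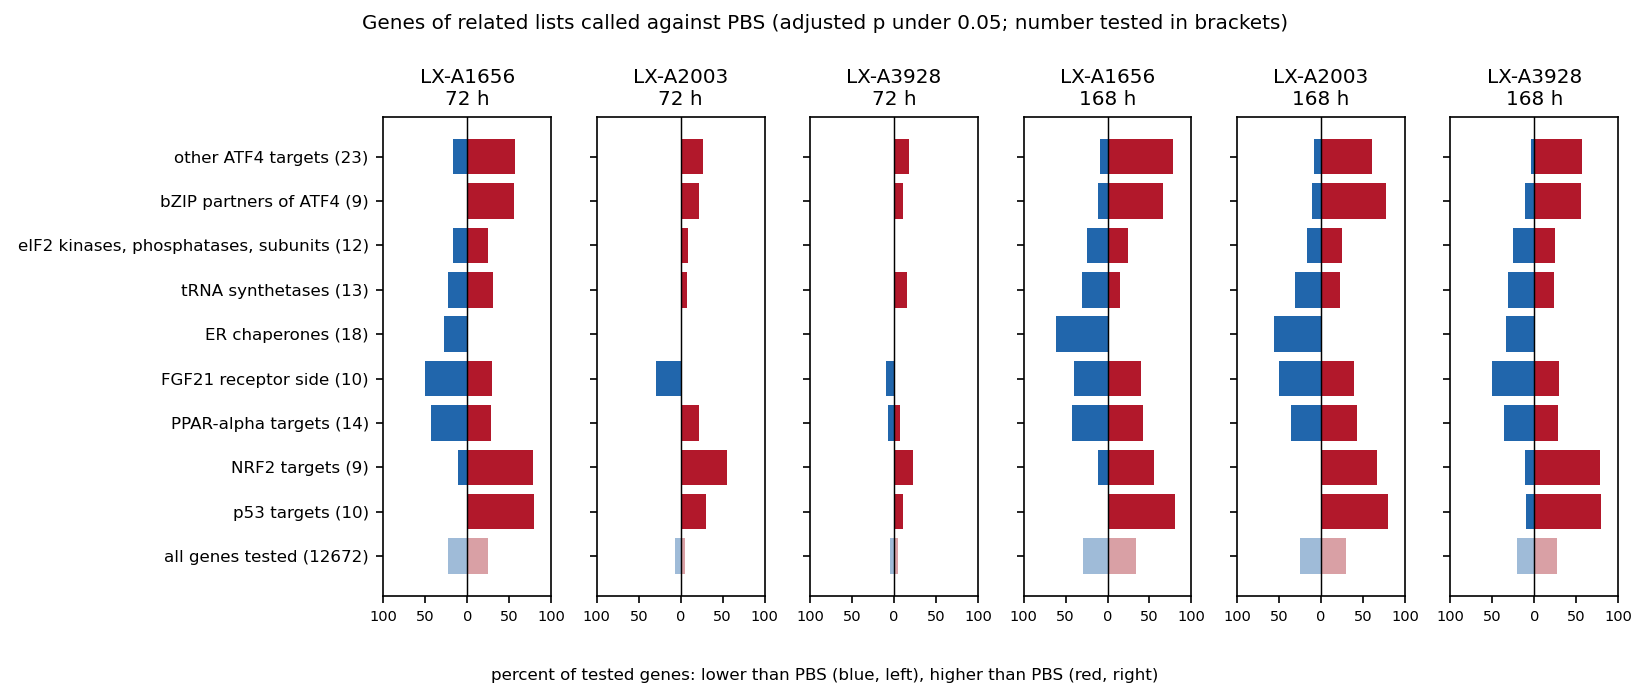
Percent of the tested genes of each list that were higher (red, right) or lower (blue, left) than PBS at an adjusted p under 0.05, at 72 h and 168 h, with all 12672 genes tested in the last row. Among ATF4 targets 18, 14 and 13 of 23 were higher at 168 h for LX-A1656, LX-A2003 and then LX-A3928, and the ER chaperone row has no red bar.

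Markers of other cells moved at the same times. In bulk liver, fewer cells of a type and less RNA per cell cannot be told apart, and the part of these changes in the values above was not tested. The counts at 168 h stand beside 34.1%, 29.8% and 27.3% of all genes higher and 29.7%, 25.3% and 20.7% lower for LX-A1656, LX-A2003 and then LX-A3928. Of 10 hepatocyte markers 8, 7 and 7 fell at 168 h, and their summed level ran from 35610 to 49850 CPM with LX-A1656, 34180 to 42200 with LX-A2003 and 33080 to 92460 with LX-A3928, against 71110 to 89640 CPM with PBS. At 72 h 6 fell with LX-A1656, as 23.4% of all genes did, and the sum ran from 44390 to 63330 CPM against 73120 to 80000 CPM with PBS. Of 8 monocyte and recruited macrophage markers 7, 8 and 8 rose at 168 h, to summed levels of 1061 to 1648, 657 to 910.5 and 483 to 715 CPM, against 146 to 186 CPM. Of 9 stellate cell and myofibroblast markers 8, 8 and 7 rose, to 1498 to 1988, 948 to 1559 and 866 to 1619 CPM, against 463 to 498 CPM. Kupffer cell markers summed to 384 to 509.6, 456 to 608 and 378.5 to 623 CPM, against 226 to 249.7 CPM, with 4, 4 and 5 of 7 higher. Of 10 sinusoidal endothelial markers 5, 5 and 6 fell and 2, 2 and 3 rose, with sums of 229 to 256, 224 to 259 and 256.5 to 296 CPM, against 427 to 465 CPM. Neutrophil markers summed to at most 43.2 CPM and T and NK cell markers to at most 12.2 CPM in any library. Neutrophil sums at 168 h were 15.5 to 37.9, 9.66 to 16.25 and 8.79 to 43.2 CPM, against 3.73 to 6.19 CPM with PBS. With LX-A1656 at 72 h they were 18.1 to 21.3 CPM, against 3.73 to 5.97 CPM. T and NK sums at 168 h were 6.92 to 12.2, 9.85 to 11.4 and 9.69 to 11.5 CPM, against 4.14 to 5.52 CPM. Cholangiocyte sums were 263 to 344, 165 to 230 and 143 to 290 CPM, against 141 to 176 CPM. Mpo, a neutrophil marker of the list, was at 0 in all PBS libraries. It was also at 0 in every oligonucleotide library at 24 h and in the LX-A1656 and LX-A3928 libraries at 72 h. Klrb1c, an NK cell marker, was at 0 in every group except LX-A1656 at 168 h. At 24 h, when Chac1 rose with LX-A2003 and LX-A3928, none of the hepatocyte markers rose and 1 fell with each, and no monocyte, Kupffer, stellate or neutrophil marker was called. Of the sinusoidal markers 3, 2 and 2 fell at 24 h for LX-A1656, LX-A2003 and then LX-A3928. The counts at 24 h stand beside 1.88%, 1.15% and 1.58% of all genes lower.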

How the data were processed

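The authors deposited raw counts per gene target, made with an Ion AmpliSeq mouse transcriptome kit from bead-homogenized liver per the labels' protocols; no source used here names the aligner, build or strand setting. The 48 libraries held 8140065 to 17191129 counts, and at least 99.891% of them stayed after filterByExpr over the 12 groups. From these counts edgeR 4.0.16 (R 4.3.3, limma 3.58.1) fitted 12 group means by robust quasi-likelihood with TMM scaling, and p-values were adjusted by Benjamini-Hochberg over 12672 genes in each of 26 comparisons. Members and lists were chosen with earlier results of these data known. Named genes were the 10 members, Scarb1, up to 3 called genes with the smallest p per list and comparison, and the 3 genes other than members with group means most like Fgf21, Atf4, Asns and Ddit3 (log2 CPM, offset 0.5). Alternatives were DESeq2 1.42.0, RLE factors, library totals alone, no filter, a replicate block, fits of the compared libraries alone, and each library left out. Leaving out the 4 libraries that stood apart was added after seeing the data. The fit was tested on simulated data with the same spread for every gene, which does not cover genes as variable as Fgf21. Promoter windows came from RefSeq and positions and overlaps from GENCODE, both on GRCm38. Single amplified fragments per gene make levels of different genes not comparable.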

Additional observations from a re-analysis of the deposited data

Results flagged for a closer look

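In 7 of 108 sets of 4 libraries 1 library stood far from the other 3 by Dixon's test, which chance gives in about 1 of 20 sets. Ddit3 was at 13.36 CPM in replicate 4 of LX-A3928 at 72 h, below its group, at 68.79 CPM in replicate 4 of LX-A2003 at 168 h and at 16.32 CPM in replicate 1 of PBS at 72 h, both above. In the LX-A2003 livers at 24 h, replicate 1 had 60.07 CPM of Fgf21 and 15.14 CPM of Chac1, and replicate 2 had 1.729 CPM of Psat1, all above the rest. Asns was at 0.1105 CPM in replicate 2 of PBS at 72 h, below the rest.

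The effect against PBS differed between times in 17 of 54 tests of the difference (edgeR, adjusted p under 0.05). Of all genes tested, 30.2%, 2.71% and 1.26% were called between 24 h and 72 h for LX-A1656, LX-A2003 and then LX-A3928. Between 72 h and 168 h the shares were 30.1%, 29.7% and 23.0%. Between 24 h and 72 h it grew with LX-A1656 by 4.068 for Asns, 3.487 for Psat1, 2.042 for Ddit3 and 0.8027 for Atf4, and with LX-A3928 by 2.511 for Psat1. Between 72 h and 168 h it grew with LX-A1656 by 2.719 for Asns, 1.828 for Psat1 and 0.9828 for Ddit3, and changed by -1.617 for Atf5 and -0.5337 for Atf4. With LX-A2003 it grew by 1.668 for Ddit3 and 1.604 for Trib3 and changed by -3.051 for Chac1. With LX-A3928 it grew by 1.567 for Ddit3 and 1.574 for Trib3 and changed by -2.358 for Chac1 and -0.6023 for Atf4. All are log2 differences. Calls for Trib3, for Psat1 with LX-A3928, and for Atf4, Asns and Psat1 between 72 h and 168 h were lost in some other runs.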

How the results depend on the processing

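Of 79 calls of a gene in a comparison, none changed direction under any alternative run. With no single library left out, 77 stayed past the threshold with DESeq2, 78 with RLE factors, 75 with library totals alone, 69 with no filter, 67 in fits of the compared libraries alone and 77 with the replicate block; with 1 library left out 684 of 768 did. RLE factors moved no count of called genes by over 1.5 times. For LX-A1656 against PBS at 24 h the count of 0 became 1 with the replicate block, 2 with the compared libraries alone and 1 with DESeq2. With the compared libraries alone it was 1 for LX-A2003 (2 in the full fit) and 2 for LX-A3928 (1 in the full fit) against PBS at 24 h, 1 for LX-A3928 against LX-A2003 at 24 h (0), 3 for LX-A3928 against LX-A1656 at 72 h (5), 1 and 5 for the LX-A2003 changes to 72 h (0) and to 168 h (3), and 3 and 2 for those of LX-A3928 (1 and 4). DESeq2 gave 1 for LX-A2003 against LX-A1656 at 24 h (0), 1 for the LX-A2003 change to 72 h (0), 3 for that of LX-A3928 (1) and 1 for PBS at 72 h against 24 h (0). For LX-A3928 against LX-A1656 at 24 h the count of 2 became 1 with library totals, no filter or the replicate block and 4 with the compared libraries alone. No filter gave 3 for LX-A3928 against LX-A1656 at 72 h (5) and 2 for the LX-A3928 change to 168 h (4), and library totals gave 6 for the LX-A2003 change to 168 h (3). Same-numbered replicates did not pair: every pair correlated above 0.1 in 1 of 20 comparisons (range -0.698 to 0.498), LX-A2003 against LX-A1656 at 72 h, where the block left 7 called. Leaving out 1 library gave 0 to 1, 1 to 3 and 1 genes against PBS at 24 h for LX-A1656, LX-A2003 and LX-A3928, 5 to 6, 5 and 4 to 5 at 72 h, and 6 to 8, 6 and 5 to 7 at 168 h. For LX-A2003 over LX-A1656 it gave 0 to 1, 5 to 7 and 4 to 5, for LX-A3928 over LX-A1656 0 to 2, 2 to 7 and 4 to 6, and for LX-A3928 over LX-A2003 0 throughout. Changes to 72 h and 168 h gave 4 and 2 to 6 with LX-A1656, 0 to 1 and 2 to 4 with LX-A2003, 0 to 3 and 2 to 4 with LX-A3928, and 0 to 1 and 0 for PBS. The causes were not tested. Depth limits Asns and Psat1 in PBS livers, with 1 to 14 reads a library.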

Other observations

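Cell cycle genes and a p53 target gene rose at 168 h. Of 6 cell cycle genes tested 5, 6 and 6 rose for LX-A1656, LX-A2003 and then LX-A3928, where 34.1%, 29.8% and 27.3% of all genes were higher, led by Ccna2, the cyclin A2 gene, at 3.54 ± 0.32, 3.97 ± 0.32 and 4.04 ± 0.32 (log2 fold change ± SE against PBS). Cdkn1a, the p53 target that arrests the cycle, rose by 4.00 ± 0.40, 3.50 ± 0.39 and 2.55 ± 0.38. At 72 h it rose by 4.66 ± 0.42 with LX-A1656 and 1.12 ± 0.39 with LX-A2003, and stood at -0.50 ± 0.40 with LX-A3928, which was not called (edgeR, adjusted p = 0.527).

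At 24 h some PPAR-alpha targets had changed against PBS. Cpt1a rose by 0.50 ± 0.14, 0.58 ± 0.14 and 0.61 ± 0.14, and Pdk4, a kinase gene that spares glucose, fell by 1.09 ± 0.30 with LX-A2003 and by 1.90 ± 0.31 with LX-A3928.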
